A study of Mus musculus with 6 samples.

Results

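Metallothioneins are small cysteine-rich proteins that bind zinc and copper and buffer free metal in the cell. Their genes are switched on by MTF1, a zinc-sensing transcription factor that binds short metal response elements near the start of its targets, and in liver also by glucocorticoids and by interleukin-6 acting through STAT3. Zinc enters the cytoplasm through the ZIP family of importers and leaves it through the ZnT family of exporters. Mt1 and Mt2, the widely expressed metallothionein genes, Mtf1, the gene of that sensor, Slc39a14, which encodes the importer ZIP14 that carries zinc into hepatocytes during inflammation, and Slc30a1, which encodes the exporter ZnT1 of the plasma membrane, were examined together. These 5 genes, taken by symbol, were 5 of 31253 features, and all 5 were detected.

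RNA of single liver cells had been measured in 6 mouse libraries, 2 from control livers, 2 from livers at a pre-metastatic stage and 2 from livers with macro-metastases. The labels describe all 6 alike as an orthotopic colorectal cancer model with the tissue liver, and give CT26-GFP, a colon carcinoma line of the mouse that expresses green fluorescent protein, as the cell line of all 6, controls included. They give no strain, age, sex or time after implantation, and none of them says that replicates are separate animals, so SEs and p-values reflect differences among libraries that could be technical. The members were chosen by their measured levels in these groups, so their own values are given as a description, with no test.

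Cells were assigned to classes by gates on marker genes that held none of the 5 members: a class name stands for cells with at least 3 markers of that class (5 for hepatocytes) and at least 2 more than of any other. Of 66935 cells kept, 55347 (82.7%) met a gate, and 9 classes with at least 20 cells in every library, 52198 cells in all, entered the fits: endothelial cells, Kupffer cells, monocytes and macrophages, neutrophils, T, NK and B cells, conventional dendritic cells and plasmacytoid dendritic cells. Libraries held 41914149 to 90819751 unique molecular identifiers (UMIs), and class sums per library held 92712 to 33727406. Levels are given as CPM, UMIs of a gene scaled to the same total in every class and library. Hepatocytes passed the gate in 624 and 516 control, 759 and 541 pre-metastatic, but 4 and 55 macro-metastatic cells, so they were described and not fitted. No cell passed the gate for tumour epithelium. The 15 pairs of libraries shared 126 to 222 barcodes each, 1.19% to 1.87% of a library's barcodes.

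The macro-metastatic libraries stood apart beyond the 5 members. Of 4729 genes tested in all 9 classes, 108 (2.28%) had a log2 fold change over 1 in every class against control, among them 17 of 80 genes of ribosomal proteins, whereas 0 (0.00%) had so against control in pre-metastatic libraries. Their median GC content over the last 500 bases was 51.7%, against 41.0% for all 4729, and their median transcript length was 1632 bases, against 3460. Rpl28, a ribosomal protein gene chosen as an example after its values were seen, stood at 35.6 and 60.3 CPM in control, 36.9 and 41.1 CPM in pre-metastatic and 657 and 682 CPM in macro-metastatic libraries over all kept cells. Gapdh, a glycolytic gene chosen likewise, stood at 113 and 135, 76.7 and 86.3, and 940.1 and 913 CPM in the same order of groups. The part of this library difference in the members' values was not tested, and between macro-metastatic and other libraries it cannot be told apart from the stage. Mt1 and Mt2 transcripts had 54.0% and 55.8% GC at that end and were 1085 and 511 bases long.

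The stretches before the starts of 3 members are shown because the metal response element, TGCACNC or TGCGCNC on either strand, is the letter pattern by which MTF1 targets are known. RefSeq sequences of GRCm38.p6 were matched for 4 of the 5 members by symbol, and the windows searched ran from 250 bases before to 50 bases after the start. The 250 bases before the start are printed, with capitals for matches.
Mt1, chr8:94178839-94179088, plus strand: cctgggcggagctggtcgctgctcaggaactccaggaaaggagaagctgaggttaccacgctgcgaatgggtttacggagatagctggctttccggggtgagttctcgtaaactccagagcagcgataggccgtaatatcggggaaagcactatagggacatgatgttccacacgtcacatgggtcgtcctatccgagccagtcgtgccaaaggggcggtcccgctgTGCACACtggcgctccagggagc
Mt2, chr8:94172368-94172617, plus strand: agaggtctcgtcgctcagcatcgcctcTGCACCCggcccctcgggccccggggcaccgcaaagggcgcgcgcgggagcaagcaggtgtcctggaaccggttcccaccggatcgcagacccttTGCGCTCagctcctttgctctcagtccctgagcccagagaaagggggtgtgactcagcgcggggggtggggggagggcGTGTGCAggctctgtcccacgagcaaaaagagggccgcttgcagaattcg
Slc30a1, chr1:191906531-191906780, plus strand: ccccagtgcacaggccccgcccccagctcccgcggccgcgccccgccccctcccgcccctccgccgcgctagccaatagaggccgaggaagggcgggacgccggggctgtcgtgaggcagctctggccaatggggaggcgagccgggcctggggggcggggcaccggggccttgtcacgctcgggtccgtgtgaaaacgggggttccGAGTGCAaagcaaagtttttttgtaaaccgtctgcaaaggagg
The Mt2 window held 4 matches, 3 of them before the start with first bases 223, 128 and 50 bases away. In the Mt1 window there were 3, 1 before the RefSeq start at 23 bases and 2 after it at 3 and 21 bases. Bases more than 50 after that start were not searched, so matches near any later Mt1 start are not counted. Slc30a1 had 2, at 43 bases before and 31 bases after the start, and the Mtf1 window, at chr4:124802299-124802548 before its RefSeq start, had 0. The annotated span of Mtf1 begins at chr4:124802104, so that window lies inside the span. Bases before the span were not searched. Of 32851 mouse promoter windows of this length, 25.7% held at least 1 match, 7.11% at least 2, 1.97% at least 3 and 0.517% at least 4. The STAT palindrome TTCNNNGAA had no match in these 4 windows and was in 8.30% of all, and the antioxidant response core TGACNNNGC, in 12.4% of all, matched once in Mt2 and once in Slc30a1, not overlapping the metal response elements. Such matches are letters in a window and say nothing of binding here.

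Mt1 was higher in macro-metastatic than in control libraries in each of the 9 classes, and the largest levels were not in the immune cells. In endothelial cells Mt1 (chr8:94179082-94180327 of GRCm38) stood at 92.6 and 137 CPM in control, 118 and 242 CPM in pre-metastatic, and 1712 and 5659.9 CPM in macro-metastatic libraries. In Kupffer cells, macrophages that live in the liver sinusoids, the same gene stood at 66.4 and 78.4, 70.4 and 105, and 641 and 1048 CPM. Both macro-metastatic libraries lay above all 4 others in both classes, while in each the lower pre-metastatic library lay among the controls. Fitted log2 fold changes of macro-metastatic against control were 5.24 ± 0.68 (SE) in endothelial cells and 3.72 ± 0.28 in Kupffer cells, and the pre-metastatic ones were 0.68 ± 0.58 and 0.30 ± 0.26, the last 2 with overlapping libraries.

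Among the other myeloid cells, monocytes and macrophages had 37.1 and 39.4 CPM of Mt1 in control, 61.1 and 60.7 CPM in pre-metastatic, and 476 and 655 CPM in macro-metastatic libraries. Conventional dendritic cells, specialised antigen presenters, had 21.1 and 40.02, 48.2 and 66.2, and 526 and 580.0 CPM. In both, the 3 stages did not overlap, and the fitted changes were 4.14 ± 0.29 and 4.21 ± 0.26 in macro-metastatic and 0.73 ± 0.35 and 0.78 ± 0.30 in pre-metastatic libraries against control. Neutrophils held 1 Mt1 UMI in the 2 control libraries together (0 and 3.2 CPM), then 31.5 and 53.9 CPM in pre-metastatic and 193 and 499.7 CPM in macro-metastatic libraries. The macro-metastatic to control ratio of summed UMIs there was 153, with a 95% interval for counting error of 27.4 to 6040, and the pre-metastatic one was 18.2 (3.21 to 726).

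In macro-metastatic libraries T, NK and B cells had less Mt1 than each class above in the same library, with the same order of stages. T cells had 5.8 and 5.6 CPM of Mt1 in control, 15.6 and 19.2 CPM in pre-metastatic, and 141 and 310.0 CPM in macro-metastatic libraries. NK cells had 2.6 and 7.0, 22.5 and 27.7, and 127 and 288 CPM, and B cells 5.9 and 8.0, 19.7 and 26.8, and 121 and 296 CPM. The 3 stages were separate in all 3 lymphocyte classes. Fitted changes against control were 5.35 ± 0.38, 5.47 ± 0.49 and 4.97 ± 0.40 in macro-metastatic T, NK and B cells and 1.58 ± 0.42, 2.20 ± 0.70 and 1.68 ± 0.53 in pre-metastatic ones. Plasmacytoid dendritic cells, the interferon-producing dendritic cells, had no Mt1 UMI in control, 18.4 and 15.7 CPM in pre-metastatic, and 75.5 and 217 CPM in macro-metastatic libraries. Against a floor of 3 UMIs over the control group this was at least 37.6-fold higher in macro-metastatic and at least 3.28-fold higher in pre-metastatic libraries.

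**Figure D1:**
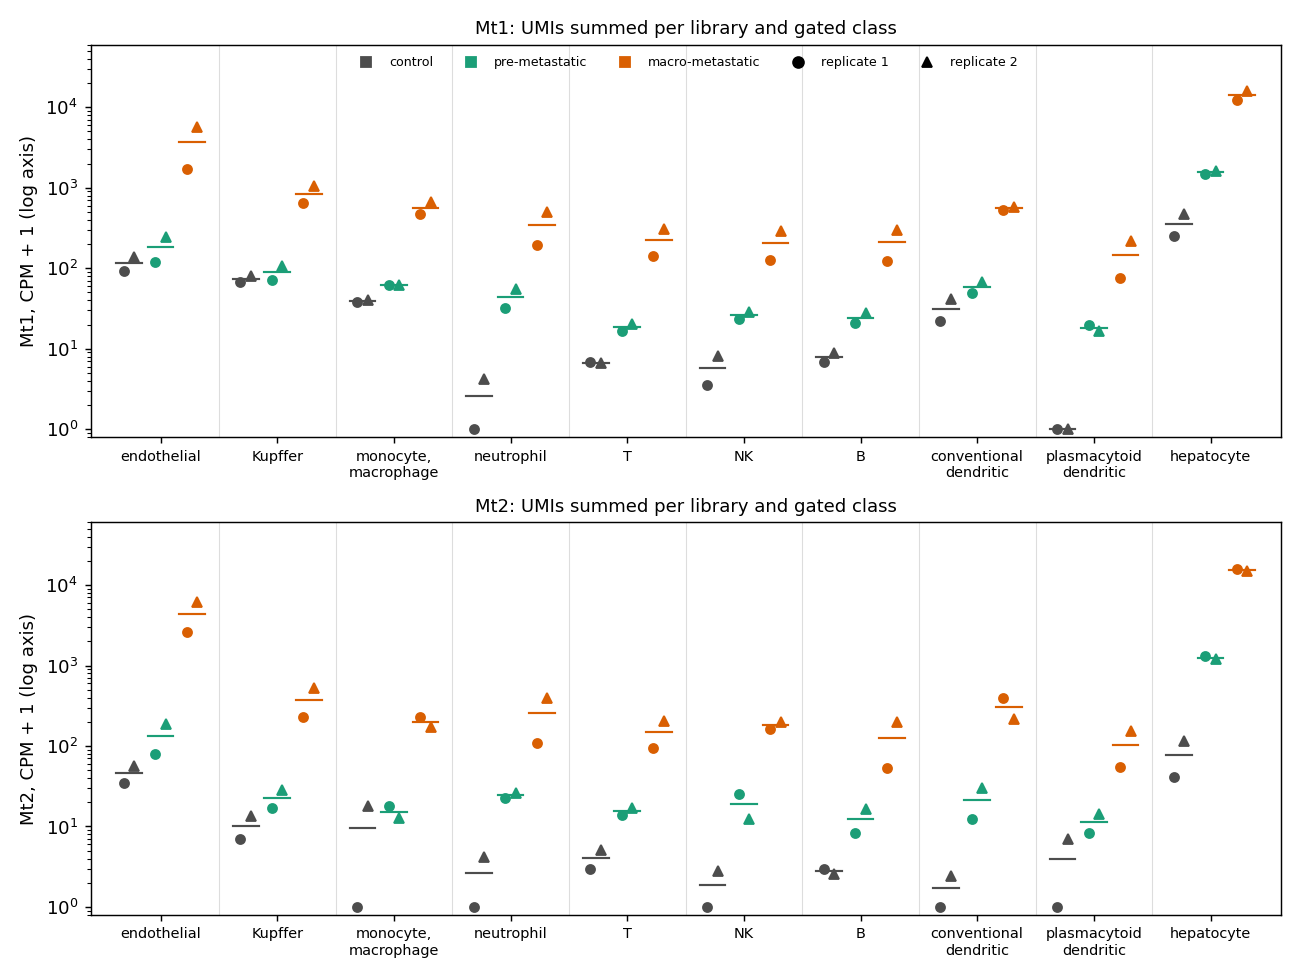
CPM + 1 on a log axis of Mt1 (top) and Mt2 (bottom) in each class, with 1 point per library, circles for replicate 1, triangles for replicate 2 and a bar at the mean of each group. Macro-metastatic libraries lie above all others in each of the 9 fitted classes, and hepatocytes, with 4 and 55 macro-metastatic cells, reach 12286 and 15763 CPM of Mt1.

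Mt2 was lower than Mt1 in control endothelial and Kupffer cells, and its median difference between stages was wider. Endothelial cells had 33.5 and 55.9 CPM of Mt2 (chr8:94172664-94173568) in control, 77.5 and 185 CPM in pre-metastatic, and 2571 and 6072 CPM in macro-metastatic libraries. Kupffer cells had 6.0 and 12.4, 15.7 and 27.8, and 225 and 522 CPM. Here the stages were separate in both classes, unlike for Mt1, with changes against control of 6.82 ± 0.68 and 5.53 ± 0.53 in macro-metastatic and 1.59 ± 0.55 and 1.27 ± 0.55 in pre-metastatic libraries. T cells had 2.0 and 4.1 CPM in control, 12.9 and 15.8 CPM in pre-metastatic, and 94.3 and 203 CPM in macro-metastatic libraries, with changes of 5.75 ± 0.42 for the macro-metastatic and 2.30 ± 0.50 for the pre-metastatic stage. B cells, with 4 Mt2 UMIs in both control libraries together, had 2.0 and 1.6, 7.3 and 15.6, and 52.6 and 195 CPM.

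In the remaining 5 classes the control libraries together held 1 to 3 Mt2 UMIs, so ratios of summed UMIs are given with counting intervals. Macro-metastatic libraries had 162 and 196 CPM in NK cells, against 0 and 1.8 CPM in control, a ratio of 177 (31.2 to 7045). Conventional dendritic cells had 396 and 213 CPM in macro-metastatic libraries, against 0 and 1.4 CPM in control, a ratio of 307 (54.9 to 12119). Neutrophils reached 109 and 397 CPM in macro-metastatic libraries, against 0 and 3.2 CPM in control, a ratio of 110 (19.8 to 4351). For plasmacytoid dendritic cells the ratio was 39.7 (10.6 to 334) and for monocytes and macrophages it was 24.3 (8.32 to 118). The pre-metastatic libraries lay between the other stages in these classes except for monocytes and macrophages, where 16.8 and 11.7 CPM in pre-metastatic libraries overlapped 0 and 16.9 CPM in control.

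Set against all genes, the macro-metastatic libraries were higher than both controls without overlap in 9 of 9 classes for Mt1 and for Mt2, where 25.8% of all gene and class pairs were, and where 5.08% of the 4729 genes were in all 9 classes. Because the members were chosen for this difference, nothing is read from that count. The median log2 fold change over classes was 5.24 for Mt1 (range 3.72 to 8.81, median 5.23 with the plasmacytoid dendritic value at its lower bound) and 6.19 for Mt2 (range 4.75 to 8.36), against 0.01 over all pairs. These medians had ranks 4 and 3 among the 4729 genes, after the neutrophil calprotectin genes S100a9 (6.79) and S100a8 (6.38). With offsets for GC content the medians were 4.81 and 5.67, with the same ranks. Without macro-metastatic replicate 2 the Mt1 median was 4.15, and without control replicate 2 the Mt2 median was 8.25.

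Over all kept cells, Mt1 stood at 764 and 2271 CPM and Mt2 at 733 and 2326 CPM in the macro-metastatic libraries. Some of the genes higher in every class also differed between these 2 libraries, such as Eef2, a translation elongation factor gene, at 616 and 273 CPM, while Rpl28 had 657 and 682 CPM. In pre-metastatic libraries Rpl28 stood at 36.9 and 41.1 CPM over all kept cells, against 35.6 and 60.3 CPM in control. Mt1 there stood at 221 and 238 CPM, against 81.9 and 117 CPM in control. Hepatocytes held 7063 of 10229 and 3988 of 11195 of these pre-metastatic Mt1 UMIs, and 875 of 2795 and 926 of 3861 in control. Levels over all kept cells thus depend on the cells captured, and that part of the difference was not tested.

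At the pre-metastatic stage alone, both libraries were higher than control without overlap in 7 of 9 classes for Mt1 and in 8 of 9 for Mt2, against 19.7% of all pairs. Only 3 of 4729 genes (0.0634%) were so in all 9 classes. The median log2 fold change was 1.58 for Mt1 and 2.30 for Mt2, against 0.00 over all pairs, with ranks 5 and 4 of 4729. Without control replicate 2 the Mt2 median was 4.66. Between the later and the earlier stage, macro-metastatic libraries were higher than pre-metastatic ones without overlap in 9 of 9 classes for each gene, against 25.1% of all pairs, with medians of 3.42 for Mt1 and 3.63 for Mt2. These 3 comparisons share libraries, so their values stand side by side and do not support each other.

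**Figure D2:**
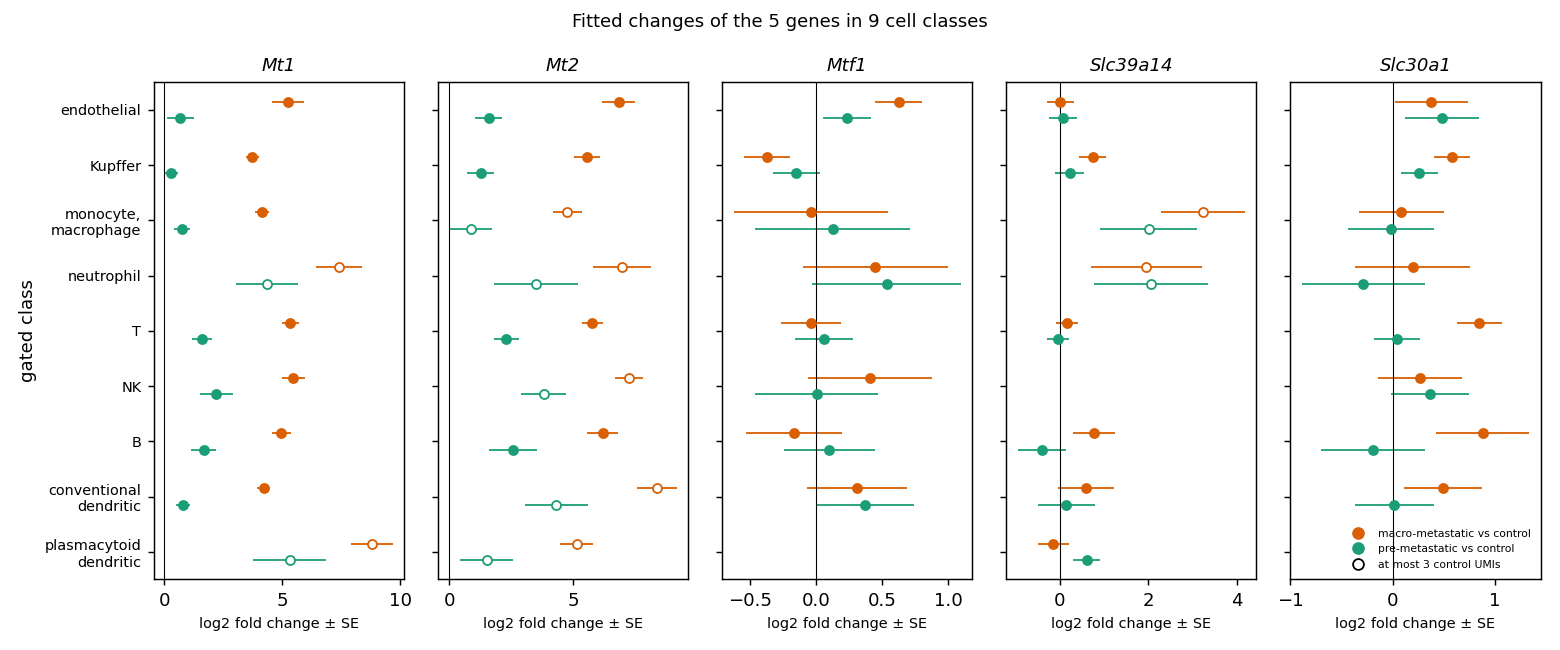
Fitted log2 fold change with its SE for each of the 5 genes in each class, macro-metastatic against control in orange and pre-metastatic against control in green, each panel with its own axis. Open points have at most 3 UMIs in the control libraries together, and their fitted size depends on the prior count. All Mt1 and Mt2 points lie above 0, while those of Mtf1, Slc39a14 and Slc30a1 lie on both sides of it. For Slc30a1 only pre-metastatic points lie below 0, and the macro-metastatic ones run from 0.09 to 0.88.

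Hepatocytes, the main metallothionein-producing cells of the liver, had higher levels than any fitted class at each stage. Mt1 stood at 251 and 467 CPM in control hepatocytes, 1485 and 1621 CPM in pre-metastatic ones, and 12286 and 15763 CPM in the 4 and 55 macro-metastatic ones. Mt2 stood at 40.4 and 114, 1307 and 1202, and 15835 and 14750.4 CPM. Pre-metastatic hepatocytes, with 759 and 541 cells, lay above both controls for both genes, whereas in endothelial cells of the same libraries Mt1 overlapped. In the macro-metastatic hepatocytes the first value rests on 135 Mt1 and 174 Mt2 UMIs of 4 cells. Stellate cells and fibroblasts, the collagen-producing cells, had 1648 and 6752 CPM of Mt1 in 20 and 85 macro-metastatic cells, against 157 and 98.7 CPM in 4 and 21 control cells.

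Counting cells rather than molecules, after thinning each cell to 1000 UMIs, an Mt1 UMI was found in 68.0% and 96.3% of macro-metastatic endothelial cells, against 8.68% and 11.98% of control ones, and in 10.9% and 19.98% of pre-metastatic ones. The Mt2 shares were 67.3% and 94.3% in macro-metastatic endothelial cells, against 3.48% and 5.47% in control. Most endothelial cells of both macro-metastatic libraries held the transcripts even at this depth. In Kupffer cells the Mt1 shares were 43.2% and 59.5% in macro-metastatic libraries, against 3.82% and 5.71% in control, and in T cells they were 13.6% and 25.8%, against 0.420% and 0.798%. Without thinning, macro-metastatic shares were higher, at 88.8% and 97.5% in endothelial and 35.0% and 59.8% in T cells. Thinning left out 433 to 859 gated cells per library that had fewer UMIs.

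**Figure D3:**
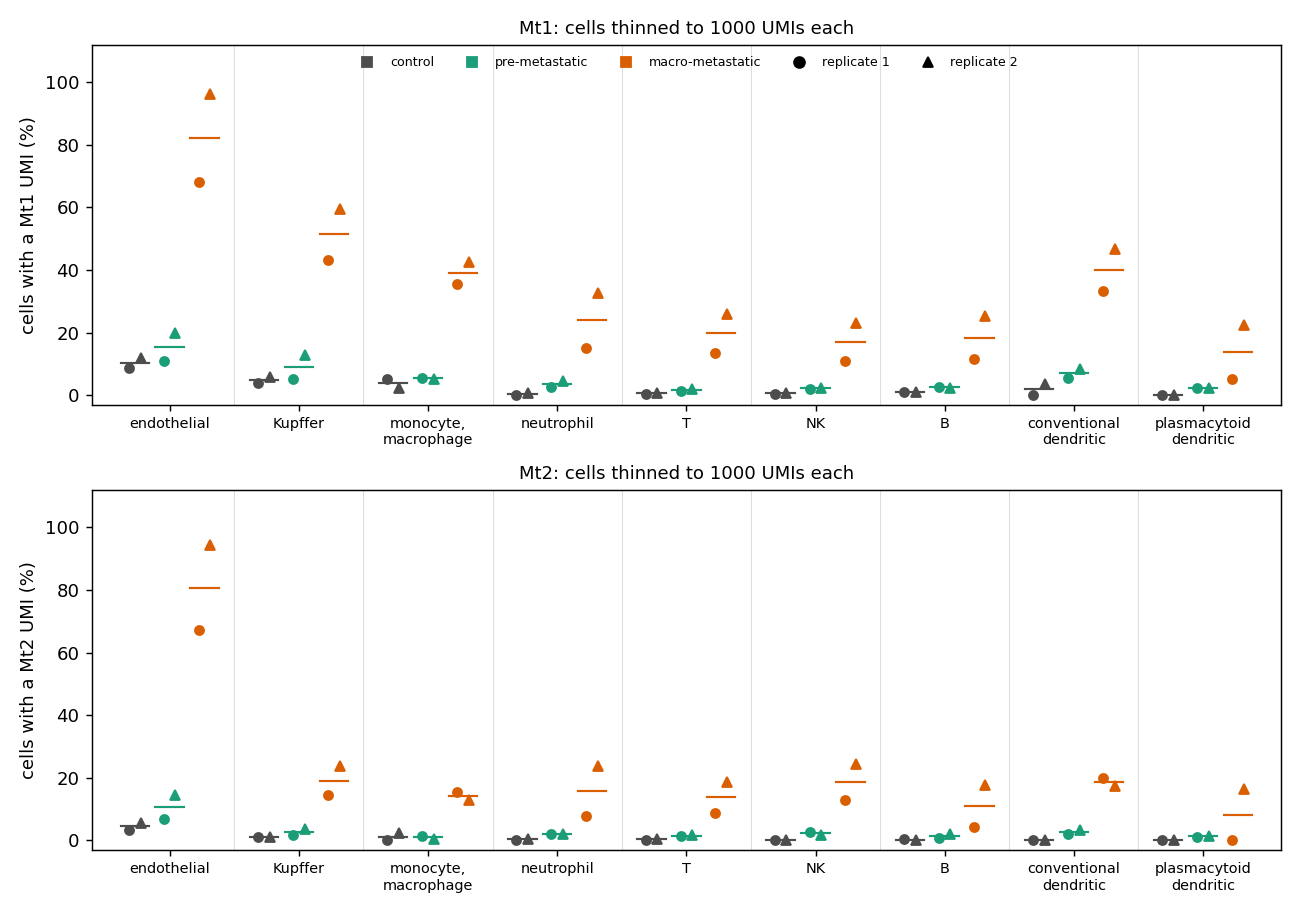
Percent of cells with at least 1 UMI of Mt1 (top) and Mt2 (bottom) after thinning to 1000 UMIs, by class and library, with bars at group means. Endothelial cells of macro-metastatic libraries reach 68.0% and 96.3% for Mt1, while T, NK and B cells lie between 10.9% and 25.8%.

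RNA freed from broken cells adds UMIs to every captured cell, and transcripts that a cell should lack measure it. In T, NK and B cells a list of 8 hepatocyte transcripts such as Alb and Apoa1 stood at 1.04% to 1.79% of its level in hepatocytes of the same library in control, 0.703% to 1.03% in pre-metastatic, and 0.288% to 1.07% in macro-metastatic libraries. Mt1 in the same cells stood at 1.02% to 2.36%, 1.05% to 1.71%, and 0.985% to 1.97% of its hepatocyte level, and Mt2 at 0% to 4.90%, 0.557% to 1.88%, and 0.332% to 1.37%. The ranges of the 3 stages overlapped for both genes, so lymphocyte levels kept a similar small ratio to hepatocyte levels while both were higher at the later stages. The list's own range was lower in macro-metastatic than in control libraries, apart from a small overlap. In macro-metastatic libraries the Mt1 range overlapped that of the list only between 0.985% and 1.07% and otherwise lay above it. Those ends came from different sums, B cells of replicate 1 for Mt1 and NK cells of replicate 2 for the list. The Mt2 range overlapped that of the list widely. Compared within the same class and library, both genes lay above the list in every macro-metastatic T, NK and B sum. For Mt2 this was 0.332% against 0.288% in B cells of replicate 1, and 1.37% against 0.371% in T cells of replicate 2. Replicate 1 values rest on 4 hepatocytes. Whether lymphocytes express these genes or carry free RNA was not tested. Set against the whole library instead, lymphocytes of macro-metastatic libraries held Mt1 at 12.7% to 18.5% of the library's level, the hepatocyte list at 12.8% to 47.6%, a list of neutrophil transcripts at 7.08% to 8.35%, and 7 endothelial transcripts, chosen after values were seen, at 5.95% to 7.43%.

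The gap between Mt1 and the hepatocyte list varied over the other fitted classes. Endothelial cells had Mt1 at 29.4% to 36.9% of the hepatocyte level in control, 7.96% to 14.9% in pre-metastatic, and 13.9% to 35.9% in macro-metastatic libraries, where the list stood at 0.608% to 0.848%. That was the widest gap of the 9 classes in macro-metastatic libraries. Kupffer cells, which engulf debris, there had 5.22% to 6.65% for Mt1 and 3.02% to 3.79% for the list. Their Mt2 stood at 1.42% in replicate 1, below the list at 3.79%, and at 3.54% in replicate 2, above the list at 3.02%. Conventional dendritic cells had 3.68% to 4.28% for Mt1 and 0.459% to 0.596% for the list, and monocytes and macrophages 3.88% to 4.16% and 1.33% to 1.37%. Neutrophils had 1.57% to 3.17% and 0.894% to 1.23%, and plasmacytoid dendritic cells 0.615% to 1.37% and 0.360% to 0.369%. The macro-metastatic replicate 1 values rest on 4 hepatocytes, and free metallothionein RNA from cells other than hepatocytes was not tested.

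The balance of the 2 metallothioneins also differed between stages and classes. Of the joint UMIs of Mt1 and Mt2 in endothelial cells, Mt2 made up 26.6% and 29.0% in control, 39.6% and 43.3% in pre-metastatic, then 60.0% and 51.8% in macro-metastatic libraries. In Kupffer cells the shares were 8.29% and 13.6%, 18.3% and 20.9%, and 26.0% and 33.3%. Hepatocytes had 13.9% and 19.6%, 46.8% and 42.6%, and 56.3% and 48.3%. In these 3 classes the stages did not overlap and the Wilson 95% intervals of control and macro-metastatic libraries were apart, although those intervals cover counting error only. T cells had 25.6% and 42.4% in control, on 43 and 33 joint UMIs, and 40.1% and 39.5% in macro-metastatic libraries, where the groups overlapped. In macro-metastatic replicate 2 the share was 51.8% in endothelial, 33.3% in Kupffer and 39.7% in B cells, and what sets it was not tested.

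**Figure D4:**
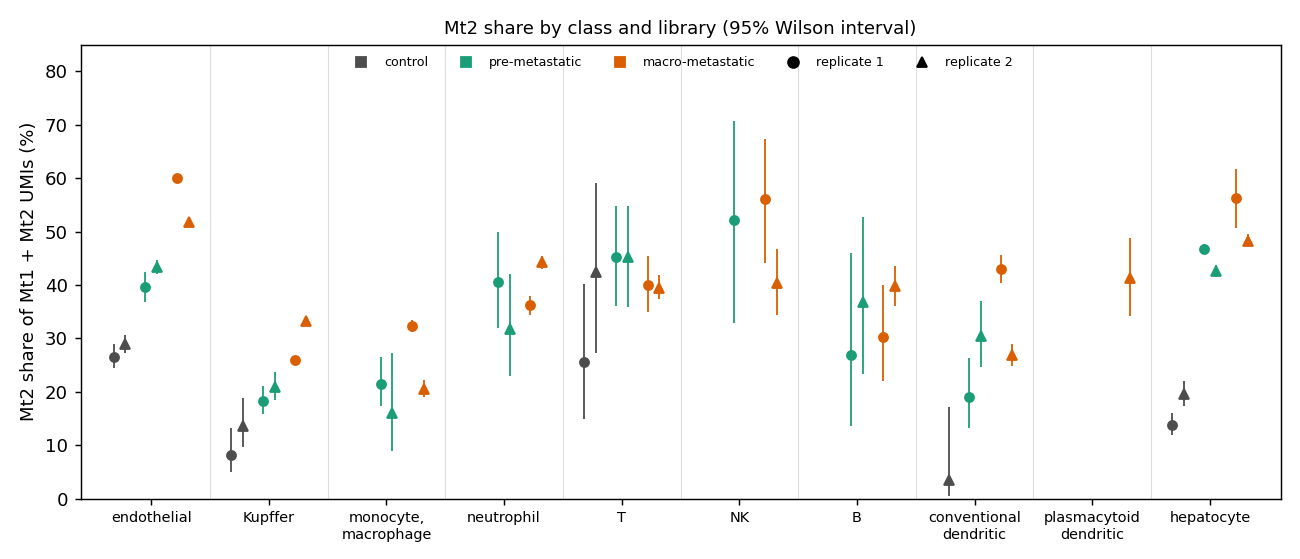
Mt2 as a percent of the summed Mt1 and Mt2 UMIs by class and library, with Wilson 95% intervals, for libraries with at least 20 joint UMIs. In endothelial cells, Kupffer cells and hepatocytes the control libraries lie lowest and the macro-metastatic ones highest.

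Mtf1 itself, the sensor gene, showed no common direction. It stood at 28.2 and 34.3 CPM in macro-metastatic endothelial cells, against 23.0 and 23.9 CPM in control, a log2 fold change of 0.62 ± 0.18. In Kupffer cells the direction was the other way, with 14.97 and 14.4 CPM in macro-metastatic libraries, against 22.0 and 21.3 CPM in control, a change of −0.37 ± 0.17. Those were the classes without overlap, 1 higher and 1 lower of 9, where 25.8% and 35.9% of all pairs were so, and the median change over the 8 classes that passed the low-count filter was 0.13. In T cells Mtf1 stood at 21.6 and 20.05 CPM in macro-metastatic libraries, against 22.5 and 20.7 CPM in control, and the groups overlapped.

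Slc39a14, the zinc importer, was highest in plasmacytoid dendritic cells among the fitted classes, and also high in hepatocytes. Plasmacytoid dendritic cells had 114 and 71.0 CPM in control, 173 and 115 CPM in pre-metastatic, and 64.7 and 79.3 CPM in macro-metastatic libraries. Hepatocytes had 93.1 and 89.7 CPM in control and 266 and 187 CPM in pre-metastatic libraries, where the 2 groups did not overlap, and 257 CPM in the 55 cells of macro-metastatic replicate 2. In monocytes and macrophages it stood at 29.3 and 67.8 CPM in macro-metastatic libraries, against 6.2 and 5.6 CPM in control, where each control library held 1 UMI and the ratio of sums was 6.40 (1.76 to 52.9). Endothelial cells had 5.3 and 8.3 CPM in macro-metastatic libraries, against 8.3 and 7.5 CPM in control, a change of 0.01 ± 0.30. The median over the 8 classes tested was 0.66. Without overlap, 3 of 9 classes were higher and 1 lower, where 25.8% and 35.9% of all pairs were so, and the higher count is near that share.

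Slc30a1, the zinc exporter and a metal-induced gene, showed small fitted changes and no separation of libraries common to all classes. T cells had 34.5 and 33.0 CPM in macro-metastatic libraries, against 18.7 and 19.5 CPM in control, a change of 0.85 ± 0.22, and pre-metastatic T cells had 22.1 and 17.5 CPM. Kupffer cells had 52.3 and 73.1 CPM in macro-metastatic libraries, against 50.4 and 44.3 CPM in control, a change of 0.58 ± 0.18. Endothelial cells, which had the highest metallothionein levels of the fitted classes, had 35.0 and 81.6 CPM in macro-metastatic libraries, against 49.8 and 55.0 CPM in control, and overlapped, while pre-metastatic ones had 69.6 and 75.7 CPM. The median over 8 classes was 0.44, with a range of 0.09 to 0.88, and the mean CPM was higher in 7 of 9 classes. Without overlap, 3 of 9 classes were higher and 0 lower, where 25.8% and 35.9% of all pairs were so, and the higher count is near that share.

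The wider zinc and induction pathways were followed in 6 lists holding 50 genes, of which 41 were tested in at least 1 class, giving 319 gene and class pairs. In macro-metastatic against control libraries 80 pairs were called higher and 22 lower (edgeR quasi-likelihood test, Benjamini-Hochberg adjusted over all genes of a class), where 11.0% of all 84336 pairs were called higher and 6.68% lower. With library totals in place of TMM factors the split was 67 higher and 35 lower, and the median of all pairs was then −0.12. The lists were drawn up with earlier results of these data known.

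Zinc importers other than Slc39a14 had 7 pairs higher and 1 lower of 73, with a median log2 fold change of 0.22 (4 higher and 3 lower with library totals). Their share of pairs called higher is close to the 11.0% of all pairs, as is that of the exporters, so neither list stands out by its count. Slc39a1 (ZIP1, an importer of the plasma membrane) rose in endothelial cells to 305 and 279 CPM in macro-metastatic libraries, against 201 and 197 CPM in control (0.76 ± 0.14, adjusted p = 0.0109), and in Kupffer cells. Slc39a3, a related importer, rose in the same 2 classes, calls that were lost with GC offsets. Slc39a7 (ZIP7), which releases zinc from the endoplasmic reticulum, rose in Kupffer cells (0.48 ± 0.12, edgeR adjusted p = 0.0258) and in plasmacytoid dendritic cells. Slc39a8 (ZIP8), an importer of zinc and manganese, fell in Kupffer cells to 19.4 and 25.1 CPM in macro-metastatic libraries, against 56.8 and 54.5 CPM in control (−1.14 ± 0.16, adjusted p = 0.00275). Slc39a10, another importer, had a change of −0.53 ± 0.19 in endothelial cells with an edgeR adjusted p of 0.0842. Its change was negative in all 8 classes tested, from −1.86 to −0.23 with a median of −0.57, and it was called in none. Of the exporters, 5 pairs were higher and 2 lower of 43, with a median of −0.13 (0.14 with GC offsets), and with library totals the split was 5 and 4. Slc30a9 (ZnT9, of the mitochondria) rose in 4 of 9 classes, in Kupffer cells to 27.8 and 25.9 CPM in macro-metastatic libraries, against 15.6 and 17.0 CPM in control (0.91 ± 0.19, adjusted p = 0.0138). Slc30a4 rose in T cells to 23.0 and 27.7 CPM, against 7.9 and 12.996 CPM in control (1.36 ± 0.29, adjusted p = 0.00659). Slc30a7, an exporter into the Golgi, fell in T cells to 23.0 and 27.7 CPM, against 37.8 and 49.3 CPM (−0.71 ± 0.21, adjusted p = 0.0283), and Slc30a6 fell in NK cells, both calls lost with DESeq2. Slc30a5, another exporter, was not called in any class, with a median of −0.26 over 9. Mt3 and Mt4, the metallothioneins known from brain and from squamous epithelium, held 4 and 101 UMIs in all and were not tested.

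A list drawn up as genes linked to MTF1 in other settings had 13 pairs higher and 0 lower of 40. Of all pairs 11.0% were called higher and 6.68% lower. Hmox1 gave 7 of the 13, and whether these genes depend on MTF1 in these cells was not tested. The list median was 0.53, or 0.04 with GC offsets, and library totals gave 12 higher and 3 lower. Hmox1 (heme oxygenase 1, which breaks down heme and also answers to oxidative stress) rose in 7 of 9 classes. In T cells it stood at 90.7 and 63.5 CPM in macro-metastatic libraries, against 20.3 and 13.3 CPM in control (2.17 ± 0.26, adjusted p = 0.000276), and in B cells at 89.4 and 57.8 CPM, against 14.8 and 19.9 CPM (2.07 ± 0.32, adjusted p = 0.000204). Ndrg1, a stress-induced gene that also answers to hypoxia, rose in 4 of 8 classes, in T cells to 66.2 and 78.2 CPM, against 16.9 and 21.0 CPM in control (1.99 ± 0.24, adjusted p = 0.000314). Csrp1, a LIM-domain protein gene, rose in Kupffer cells (1.51 ± 0.31, adjusted p = 0.0126) and in T cells. Gclc, of glutathione synthesis, and Selenow, a selenoprotein gene, were not called in any class.

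Glucocorticoid-induced genes split, with 15 pairs higher and 13 lower of 80, where 11.0% and 6.68% of all pairs were called. Their median was −0.01, and library totals or DESeq2 each gave 12 higher and 17 lower. Tsc22d3 (GILZ), a standard target of the glucocorticoid receptor, fell in 7 of 9 classes, in B cells to 712 and 841 CPM in macro-metastatic libraries, against 1741 and 1626 CPM in control (−1.06 ± 0.16, adjusted p = 0.000151). Dusp1, a phosphatase gene that damps stress kinases, fell in 3 classes. Errfi1, a feedback inhibitor of the EGF receptor, rose in 5, and the clock gene Per1 in 3, while Fkbp5 was not called in any class (median −0.18). The 3 list pairs called in pre-metastatic against control libraries were all of this list, where 0.138% of all pairs were called higher and 0.0273% lower. DESeq2, a looser gate and cluster classes each kept 2 of these 3 calls. Calls were also lost when single control or pre-metastatic libraries were left out. Fkbp5, a chaperone gene of the glucocorticoid receptor, rose in plasmacytoid dendritic cells to 398 and 383 CPM in pre-metastatic libraries, against 195 and 148 CPM in control (1.16 ± 0.22, adjusted p = 0.00957), and in T cells to 192 and 185 CPM, against 92.3 and 90.7 CPM (1.03 ± 0.18, adjusted p = 0.0378). Klf9 rose in T cells to 122 and 102 CPM, against 44.97 and 59.4 CPM in control (1.10 ± 0.18, adjusted p = 0.0278). Over all lists DESeq2 called 8 pairs at this stage, and 42 were higher and 6 lower at an unadjusted edgeR p under 0.05. In macro-metastatic against pre-metastatic libraries this list had 6 pairs higher and 23 lower, where 10.5% and 5.69% of all pairs were called, and Fkbp5 fell in 6 of 9 classes.

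Genes of interleukin-6 and STAT3 signalling had the most calls, 40 pairs higher and 6 lower of 83, with a median of 0.67, where 11.0% and 6.68% of all pairs were called. Most of the higher calls came from Stat3, Pim1, Bcl3 and Il4ra. Each of the other genes was called higher in at most 2 classes and lower in at most 2. Il6ra was called lower in 2 of 8 classes and higher in 0, with a median of −0.30. Stat3, the transcription factor itself, rose in 9 of 9 classes with a median of 1.35, in NK cells to 902 and 951 CPM in macro-metastatic libraries, against 195 and 287 CPM in control (2.09 ± 0.21, adjusted p = 7.75e-07). Pim1, a STAT3-induced kinase gene, rose in 9 of 9 classes (median 1.66), and Bcl3, a cofactor of NF-kB, and Il4ra, the interleukin-4 receptor chain, rose in all 8 classes where each was tested (medians 2.92 and 2.89). Socs3, the feedback inhibitor of this pathway, rose in endothelial cells to 1287 and 1313 CPM in macro-metastatic libraries, against 132 and 154 CPM in control (3.40 ± 0.51, adjusted p = 0.0047), and in T cells. Over all 9 classes Socs3 had a median of −0.08 and a lowest value of −1.03. Il6st, the shared receptor chain gp130, fell in Kupffer cells and in monocytes and macrophages and rose in endothelial cells. Jak1 was called in endothelial cells only, which does not show that it differed from the other classes. The genes called higher here were measured in the same libraries in which ribosomal protein genes were higher, and that part was not tested.

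**Figure D5:**
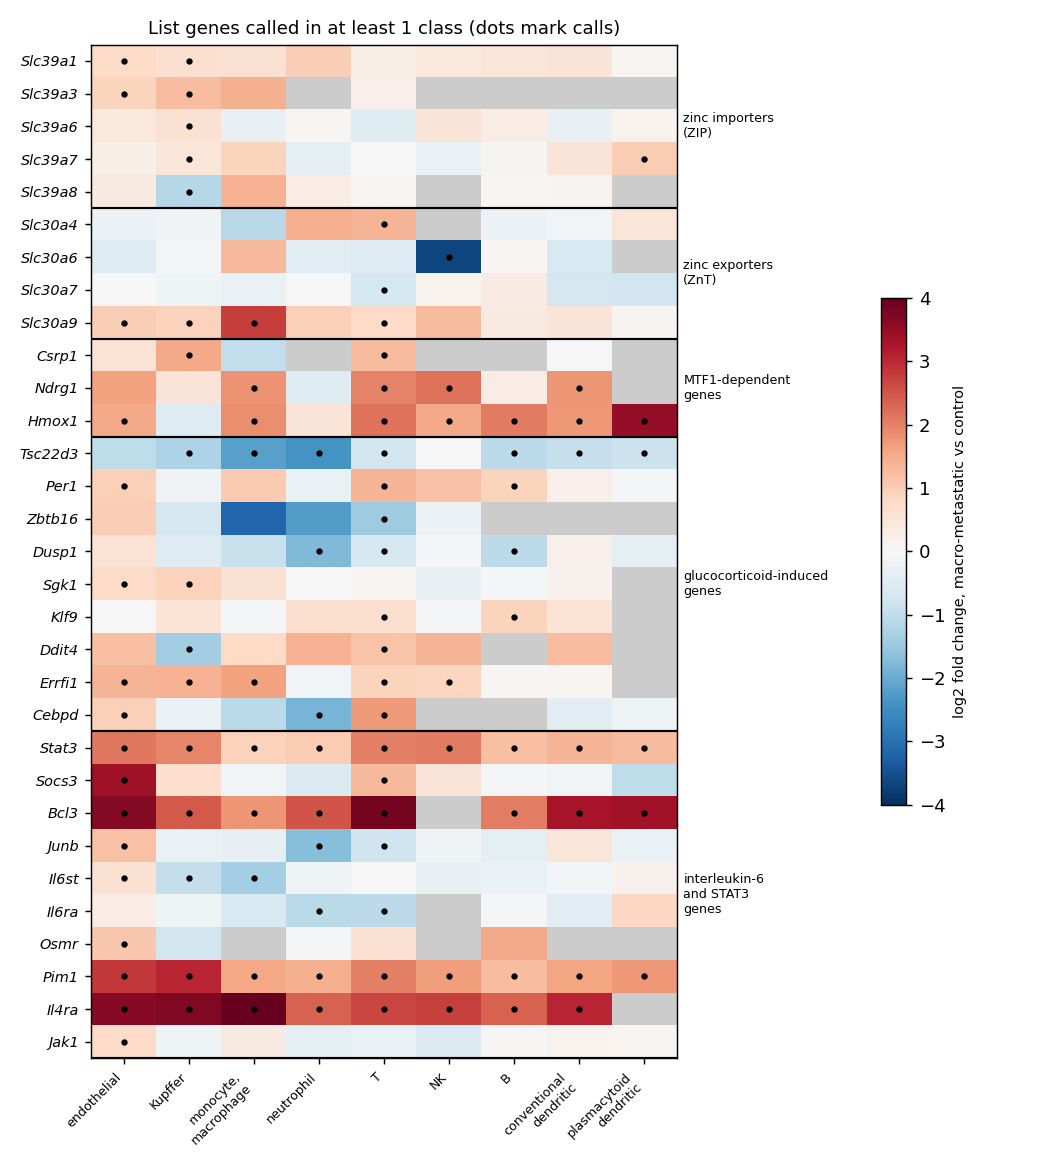
Log2 fold change of macro-metastatic against control libraries for every list gene called in at least 1 class, by class, with dots at calls and grey where a gene was not tested. Stat3, Pim1, Bcl3 and Il4ra are higher in every class tested, while Tsc22d3 is lower in 7 of 9.

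Over the 54 class and library units, centred within each class, Mt1 and Mt2 had a Pearson correlation of 0.97 in log2(CPM + 10), the highest of each among 3882 genes with a mean of at least 50 CPM. Next for Mt1 were Tubb6 (0.95), a tubulin gene, Zyx (0.93), a focal adhesion gene, Lman2 (0.93) and Ctsa (0.93), and for Mt2 Zyx (0.94), Tubb6 (0.93), Fosb (0.93), a gene of the AP-1 family, and Rps14 (0.92), a ribosomal protein gene. These units share their libraries, so the values also carry what sets the macro-metastatic libraries apart and are given as a description.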

How the data were processed

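RNA of liver cells was captured on the BD Rhapsody system in 6 libraries, per the labels' protocols, after mincing, collagenase digestion, lysis of erythrocytes and removal of dead cells, which can lose fragile cells such as hepatocytes. The authors deposited raw UMI counts and used CASAVA 1.8 and UMI-tools with build mm10, per the submitters' processing notes. Aligner and annotation: not given in the sources used here. Barcodes were kept at 300 or more genes and a mitochondrial share below 25%. Doublets were handled only by the lead of 2 markers that a gate required: 7497 cells (11.2%) that reached 2 gates within it stayed out. Counts were summed per library and class and tested with edgeR 4.0.16 (quasi-likelihood, filterByExpr, TMM; R 4.3.3), all 6 libraries in 1 fit per class, adjusted over all genes of a class at 0.05, and checked on simulated counts. Alternatives were DESeq2 1.42.0, other scalings, filters, gates, GC offsets, a replicate block, clusters (scanpy 1.11.5) and leaving out libraries. Shares were compared after thinning to 1000 UMIs. Intervals are 95% and, like floors of 3 UMIs, cover counting error only. Named list genes were those called in at least 1 class, up to 4 a list by smallest adjusted p, plus uncalled ones and, chosen after values were seen, Socs3, Il6st, Il6ra, Jak1, Rpl28, Gapdh, Eef2, Ddit4, Cebpd and Junb. The members and lists were chosen with earlier results of these data known.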

Additional observations from a re-analysis of the deposited data

Results flagged for a closer look

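Several list genes were called in opposite directions in different classes, and the difference between classes was not tested. In macro-metastatic against control libraries, Ddit4 had a log2 fold change of 1.13 in T cells and −1.38 in Kupffer cells. Cebpd had 1.70 in T cells and −1.86 in neutrophils. Junb had 1.18 in endothelial cells and −1.70 in neutrophils. Il6st had 0.62 in endothelial cells and −1.35 in monocytes and macrophages. In macro-metastatic against pre-metastatic libraries, Socs3 had 1.87 in endothelial cells and −1.67 in plasmacytoid dendritic cells.

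Metallothionein levels in cells that met no gate, 11588 in all, were also above those of control libraries. Their Mt1 stood at 776 and 2566 CPM in macro-metastatic libraries, against 73.9 and 94.6 CPM in control, and their Mt2 at 904 and 3531 CPM, against 14.7 and 27.1 CPM. An unnamed cluster of 1604 cells led by Ccl5, Gzmb and Xcl1, which is cluster 22, had 142 and 311 CPM of Mt1 and 70.8 and 185 CPM of Mt2 in macro-metastatic libraries, above its control levels. All 101 UMIs of Mt4, a metallothionein of squamous epithelium, came from macro-metastatic replicate 2.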

How the results depend on the processing

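The pre-metastatic against control count of list pairs, 3, was 8 with DESeq2 and 18 with no low-count filter. The Mt1 median of macro-metastatic against control, 5.24, was 4.42 with cluster classes and 4.57 with GC offsets and replicate block together. Unthinned, the median share of cells with an Mt1 UMI over classes in macro-metastatic libraries was 51.7% in place of 23.9%. The cause of these shifts was not tested. Leaving out each library in turn gave 61 to 101 list pairs for macro-metastatic against control (61 without control replicate 1), 1 to 11 for pre-metastatic against control and 52 to 97 for macro-metastatic against pre-metastatic (52 without pre-metastatic replicate 1). The medians ranged over 4.15 to 5.78 for Mt1 and 5.45 to 8.25 for Mt2 in macro-metastatic, and over 1.44 to 1.75 for Mt1 and 1.79 to 4.66 for Mt2 in pre-metastatic libraries against control. Same-numbered samples had correlations of −0.08 to 0.37, not all over 0.1. The main fits did not pair samples by number, but such correlations cannot exclude a pairing. With the replicate block the counts were 109, 4 and 106 in that order of comparisons. The Mt1 medians were then 5.001 and 1.54 and the Mt2 medians 6.14 and 2.29. With no low-count filter the median change of all pairs in macro-metastatic against control libraries was 0.13. Over all alternatives and classes, 0 of 135 macro-metastatic Mt1 values and 0 of 134 Mt2 values had the other sign, as had 0 of 135 pre-metastatic Mt1 values, while 1 of 134 pre-metastatic Mt2 values did. Control sums of few UMIs limit the fold changes of neutrophils, NK and B cells, monocytes and macrophages, and both kinds of dendritic cells.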

Other observations

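A cluster of 428 cells that no marker set named, led by Spp1, S100a4, Lgals1 and Col1a2, held 424 cells of macro-metastatic replicate 2 and 3 of replicate 1. In replicate 2 its cells had 2958 CPM of Mt1, 5400 CPM of Mt2 and 111 CPM of Slc39a14, and Mt4 UMIs were found in 40 of its cells, 92 UMIs of the 101 in all. Over all kept cells of that library Mt1 stood at 2271 and Mt2 at 2326 CPM. The cluster is close to 1 library, and what its cells are was not tested.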
